A study of Mus musculus with 8 samples.

Results

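The peaks described here are the H3K27Ac peaks at the starts of noncoding RNA genes in the neonatal mouse heart. A peak was included when it was narrower than 10000 bp and its centre lay between 1000 bp upstream and 100 bp downstream of the start of a curated noncoding RefSeq transcript. The gene had to be without any curated protein-coding RefSeq transcript, and the centre had to lie in no such window of a curated protein-coding transcript. Predicted coding transcripts were not considered. By this rule 522 of the 45987 peaks were noncoding promoter peaks, and they belonged to 520 genes when each peak was given the noncoding gene with the nearest start. Another 216 peaks were left out because they were also centred in a coding window, and 7 because of their width. The rule looked at position and width only, not at the level of the mark. At its limits, the peak of *Pvt1* lay inside with its centre at position −999 from the start (log2 difference 0.36), while that of *Gm15908* lay outside at −1015 (0.12). At the downstream limit the peak of *4933404O12Rik* lay inside at 100 bp (0.29) and that of *4933407K13Rik* outside at 101 bp (0.25). The widest member, at *Gm15569*, covered 9409 bp (−0.24), and the narrowest peak left out for its width, at *Gm9917*, covered 10743 bp (0.05).

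H3K27Ac was profiled by ChIP-Seq in ventricles at postnatal day 7 to ask how the loss of *Arid1a* from cardiomyocytes changes this mark. The controls were *Arid1a* f/f mice, in which both alleles are floxed and no Cre is present. The mutants were aMHC-Cre;*Arid1a* f/f littermates, called *Arid1a cKO*, in which both alleles are floxed as well. Each genotype had 2 H3K27Ac libraries and 2 input libraries, and the merged inputs were used in the peak calls. The αMHC promoter drives Cre in cardiomyocytes, so the transgene leaves the other cells of the ventricle with *Arid1a*. The tissue was bulk ventricle, and a weaker mark per cell cannot be told apart from fewer cells that carry it. Levels are the authors' group means in normalized reads. The table holds no value for a single library, so there is no replicate error, the depth is unknown, and no difference below was tested. A difference is the log2 mean of *Arid1a cKO* minus that of control, and a peak is counted as lower or higher when the means differ 2-fold or more, a log2 difference of at least 1 in size.

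The promoter peaks of the markers matched ventricular tissue. All 6 cardiomyocyte markers had a peak, with control means from 949 to 3591 normalized reads and log2 differences from −0.43 to 0.13. No peak lay on the promoters of the 4 liver and 4 brain markers. All 5 fibroblast markers were higher in *Arid1a cKO* by 0.35 to 0.71 log2, their summed level being 1137 normalized reads in control and 1690 in *Arid1a cKO*, and 2 of 4 smooth muscle markers had a peak, with 337 and 630 reads in sum and differences of 0.89 and 1.09. The 5 endothelial markers had differences from −0.02 to 0.19, and 1 of 4 leukocyte markers had a peak (0.19), with *Ptprc*, *Csf1r* and *Lyz2* at none. What part these other cells had in the noncoding promoter peaks that were higher in *Arid1a cKO* was not tested. The peak on the *Arid1a* promoter had means of 1607 and 1663 reads, which says nothing about the deletion of the floxed exons.

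SWI/SNF complexes, to which ARID1A belongs, use ATP to move and evict nucleosomes, and acetylation of lysine 27 on histone H3 marks active promoters and enhancers. Long noncoding RNAs (lncRNAs) are transcribed by RNA polymerase II like messenger RNAs, often from a promoter shared with a coding gene on the other strand. MicroRNAs (miRNAs) are cut from hairpins in longer primary transcripts, and bases 2 to 8 of the mature strand, the seed, pair with the target messenger RNA. Small nucleolar RNAs (snoRNAs) guide the modification of ribosomal RNA and mostly lie in introns of host genes. The RefSeq entry of a miRNA or snoRNA gene is the processed RNA, so its start is not the start of the primary transcript, and a peak there can be an enhancer or the body of the host gene.

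The promoters of 6 members show what kinds of sequence the peaks covered. They run from 250 bases before to 50 bases after the start, 5′ to 3′ on the strand of the gene, from RefSeq on GRCm38.p6, and each CG dinucleotide is in capitals. *Foxo6os* (chr4:120290883-120291182, plus strand), *F630206G17Rik* (chr11:45807833-45808132, plus) and *B930025P03Rik* (chr8:10882405-10882704, minus) were among the peaks with the most negative differences. *4833412C05Rik* (chr7:67803447-67803746, minus) was among those with the most positive. *Mir22hg* (chr11:75461289-75461588, plus) and *Lppos* (chr16:24393606-24393905, minus) had strong peaks of about equal level in both groups.
Foxo6os: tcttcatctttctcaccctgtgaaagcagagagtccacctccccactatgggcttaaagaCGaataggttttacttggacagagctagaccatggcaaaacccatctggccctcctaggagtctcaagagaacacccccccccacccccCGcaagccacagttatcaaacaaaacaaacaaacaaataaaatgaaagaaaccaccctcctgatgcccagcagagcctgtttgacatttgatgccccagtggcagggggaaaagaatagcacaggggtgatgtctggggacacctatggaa
F630206G17Rik: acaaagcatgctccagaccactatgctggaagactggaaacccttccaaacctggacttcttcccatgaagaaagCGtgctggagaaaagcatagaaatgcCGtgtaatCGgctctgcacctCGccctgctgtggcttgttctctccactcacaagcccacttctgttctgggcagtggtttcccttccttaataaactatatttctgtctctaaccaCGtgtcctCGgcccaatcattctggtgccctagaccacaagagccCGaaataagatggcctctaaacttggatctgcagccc
B930025P03Rik: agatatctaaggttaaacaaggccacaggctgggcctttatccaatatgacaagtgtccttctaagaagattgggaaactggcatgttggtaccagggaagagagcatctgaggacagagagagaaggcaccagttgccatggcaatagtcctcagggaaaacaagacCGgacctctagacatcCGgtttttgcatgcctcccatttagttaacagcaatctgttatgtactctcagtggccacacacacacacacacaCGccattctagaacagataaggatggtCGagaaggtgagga
4833412C05Rik: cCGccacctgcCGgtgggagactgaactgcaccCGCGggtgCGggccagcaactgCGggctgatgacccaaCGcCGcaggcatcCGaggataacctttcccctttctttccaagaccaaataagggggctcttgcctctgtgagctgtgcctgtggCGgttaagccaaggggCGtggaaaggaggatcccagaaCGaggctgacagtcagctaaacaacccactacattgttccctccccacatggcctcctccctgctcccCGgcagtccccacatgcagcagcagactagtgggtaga
Mir22hg: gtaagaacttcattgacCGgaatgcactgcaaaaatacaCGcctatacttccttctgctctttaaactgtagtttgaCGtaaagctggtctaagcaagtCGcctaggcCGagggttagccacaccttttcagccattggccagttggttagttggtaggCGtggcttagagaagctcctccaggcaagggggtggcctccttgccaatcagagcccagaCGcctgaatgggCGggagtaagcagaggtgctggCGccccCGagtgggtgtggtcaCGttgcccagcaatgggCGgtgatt
Lppos: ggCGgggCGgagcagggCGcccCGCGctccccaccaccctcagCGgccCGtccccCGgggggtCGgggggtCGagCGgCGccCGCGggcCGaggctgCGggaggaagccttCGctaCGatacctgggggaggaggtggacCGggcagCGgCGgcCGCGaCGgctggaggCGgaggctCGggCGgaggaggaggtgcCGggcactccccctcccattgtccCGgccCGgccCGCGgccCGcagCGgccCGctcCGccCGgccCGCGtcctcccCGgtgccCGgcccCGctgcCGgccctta
The CG dinucleotides numbered 2 in *Foxo6os*, 7 in *F630206G17Rik*, 4 in *B930025P03Rik*, 13 in *4833412C05Rik*, 12 in *Mir22hg* and 43 in *Lppos*, whose GC content was 82.0%.

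Mature miRNAs whose hairpin or host gene gave a member peak are shown next, from RefSeq on the same build, 5′ to 3′, with the seed in capitals. miR-7117 is shown for the largest difference among miRNA genes, and the others are miRNAs well known from heart muscle, fibroblasts or the response to injury. miR-29b-3p and miR-29c-3p share 1 seed, as do miR-132-3p and miR-212-3p, and miR-199a-3p and miR-199b-3p.
miR-7117-5p: uCUGGGGGcucagcugaggaua
miR-7117-3p: uGUCCUUCucuuucccccag
miR-208a-3p: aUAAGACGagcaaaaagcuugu
miR-26a-5p: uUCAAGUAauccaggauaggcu
miR-30a-5p: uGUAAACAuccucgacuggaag
miR-22-3p: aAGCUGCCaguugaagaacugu
miR-29b-3p: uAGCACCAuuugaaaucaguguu
miR-29c-3p: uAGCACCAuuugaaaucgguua
miR-132-3p: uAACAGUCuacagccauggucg
miR-212-3p: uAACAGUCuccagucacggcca
miR-199a-3p: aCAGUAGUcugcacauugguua
miR-199b-3p: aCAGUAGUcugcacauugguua
A mature sequence was found for 58 of the 68 miRNA gene peaks.

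Over the 522 noncoding promoter peaks, 483 had means within 2-fold of each other. In *Arid1a cKO* hearts 21 members (4.02%) were lower by 2-fold or more, where 10.6% of all peaks were. Another 18 (3.45%) were higher, where 4.57% of all peaks were. The median log2 difference was −0.02, with quartiles of −0.18 and 0.19 and a range from −4.63 to 3.73, against a median of 0.01 over all peaks. The same window around coding starts held 4598 peaks, of which 59 (1.28%) were lower and 50 (1.09%) higher, with a median of 0.01. Per length, the median control level was 49.9 normalized reads per kb at noncoding, 61.9 at coding promoter peaks and 24.1 over all peaks. Most noncoding promoters thus carried similar group means in both genotypes, while the members 2-fold apart were a larger share than at coding promoters and, without regard to level, a smaller share than over all peaks, none of which was tested.

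**Figure D1:**
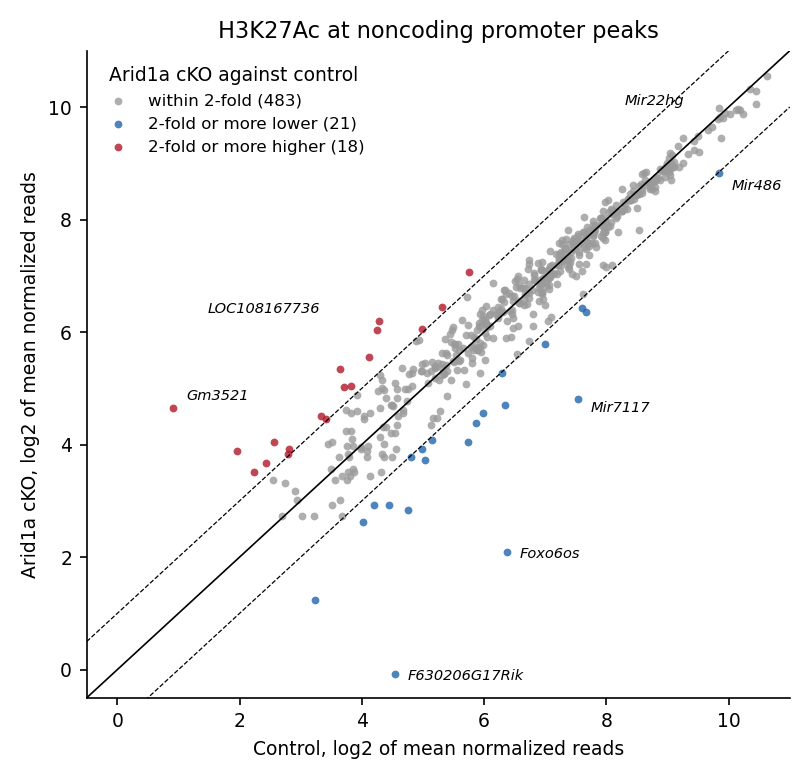
Each point is 1 of 522 noncoding promoter peaks, with the log2 of the authors' mean normalized reads in control on the horizontal axis and in Arid1a cKO on the vertical axis. The solid line marks equal means and the dashed lines a 2-fold difference. The 21 lower and 18 higher peaks lie outside the dashed lines, mostly at low levels, and Mir22hg lies on the line at 982 and 949 reads.

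How often a peak differed 2-fold depended on its level. With all peaks ranked by their mean and split into 4 equal groups, 52, 83, 150 and 237 noncoding promoter peaks fell in the groups from lowest to highest. The lower members numbered 6, 8, 4 and 3, or 11.5%, 9.64%, 2.67% and 1.27% of each group. The higher members numbered 9, 5, 4 and 0. Over all peaks the lower share was 16.5%, 14.04%, 9.14% and 2.76%, and at coding promoters 7.24%, 3.81%, 0.964% and 0.375%. In each of the 4 groups the lower share of noncoding promoters thus lay between those of coding promoters and of all peaks. The higher share was 17.3%, 6.02%, 2.67% and 0%, against 12.6%, 4.32%, 1.17% and 0.226% over all peaks and 11.3%, 3.81%, 0.275% and 0.0417% at coding promoters. In 3 of the 4 groups it was above that of all peaks, although the share over all levels together was below it. Across members the size of the log2 difference had a Pearson r of −0.447 and a Spearman rho of −0.484 with the control reads per kb (n = 522 peaks of the same libraries). The part that counting error at low levels had in this was not tested.

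**Figure D2:**
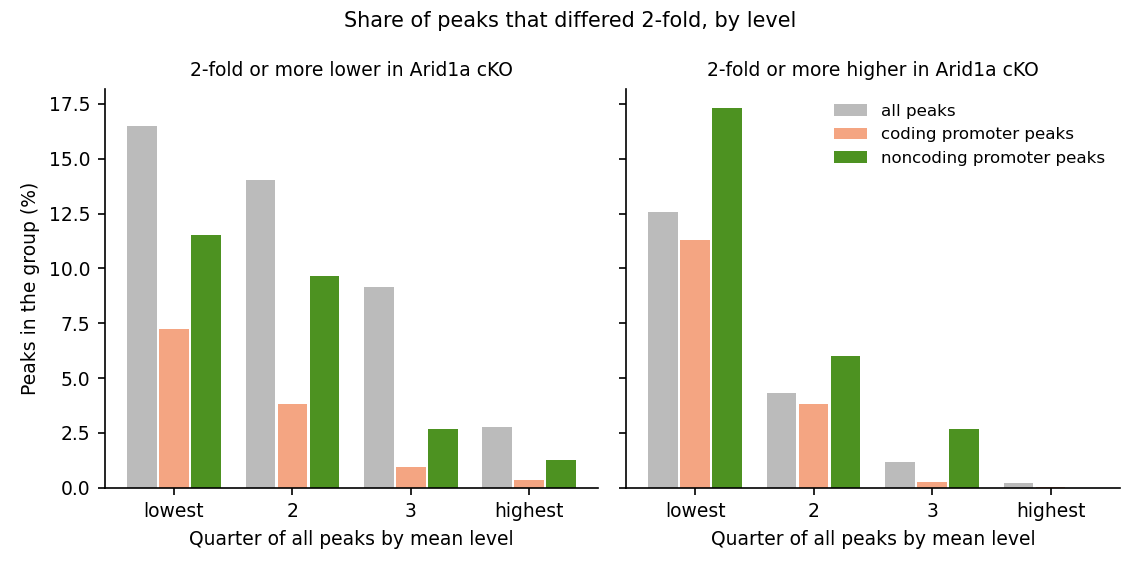
Bars give the percentage of peaks 2-fold or more lower (left) or higher (right) in Arid1a cKO, with all peaks split into 4 equal groups by mean level from lowest to highest. For noncoding promoter peaks (green) the lower share went from 11.5% in the lowest group to 1.27% in the highest, and the higher share from 17.3% to 0%.

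Long noncoding RNA genes without a small RNA inside gave 390 of the members, and both extremes were among them. Of these, 17 were lower (4.36%) and 16 higher (4.10%), where 10.6% and 4.57% of all peaks were. The median log2 difference of the 390 peaks was −0.01. *F630206G17Rik*, an lncRNA gene apart from coding genes, had the most negative difference of all members. Its peak at chr11:45807362-45808344 had 23.4 normalized reads in control and 0.946 in *Arid1a cKO*, which is at least 7.81-fold lower when the *Arid1a cKO* mean is set to a floor of 3 reads. The nearest coding promoter peak, that of *Clint1* 44.8 kb away, had a difference of 0.00. The rank of *F630206G17Rik* ahead of *Foxo6os*, which was 19.6-fold lower with no floor needed, rests on a mean under 3 reads.

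*Foxo6os* runs opposite to *Foxo6*, which encodes a forkhead transcription factor of the FOXO family. Its peak at chr4:120288971-120291798 had 83.3 normalized reads in control and 4.26 in *Arid1a cKO*, a 19.6-fold lower mean and a log2 difference of −4.29. The promoter peak of *Foxo6* itself lay 2.92 kb away with 41.9 reads in control and a difference of −1.22, and the 4 other peaks within 100 kb had a median of −1.125. Both promoters of this pair had lower means in *Arid1a cKO*, the noncoding one by more. *Foxo6os* was 1 of 7 head-to-head genes whose coding partner had a promoter peak of its own.

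A further 4 lncRNA peaks with low means in *Arid1a cKO* lay next to or inside coding genes. *Uckl1os*, antisense to the uridine-cytidine kinase gene *Uckl1*, had 26.9 normalized reads in control and 7.11 in *Arid1a cKO* (−1.92). The *Uckl1* promoter peak had 284 reads in control and a difference of 0.13, and the 11 other peaks within 100 kb had a median of 0.07. *2410021H03Rik* starts inside *Epb41l3*, a membrane skeleton gene, on the other strand, and had 21.9 and 7.62 reads (−1.52). The difference was −0.29 at the *Epb41l3* promoter, while the 2 other peaks within 100 kb of *2410021H03Rik* had a median of −1.40. *2310001K24Rik* starts inside *Fitm2*, a gene of lipid droplet formation, and its peak, which also covers the coding promoter, had 202 and 81.6 reads (−1.31). The median over the 5 other peaks within 100 kb of it was −3.24. *Gm32139*, head to head with the potassium channel gene *Kcnn2* and in 1 peak with a *Kcnn2* start, had 27.9 and 13.7 reads (−1.02). The 1 other peak within 100 kb of *Gm32139* had a difference of −1.92. *2310001K24Rik* and *Gm32139* were the only CpG-rich promoters among the 21 lower members.

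The other lncRNA peaks among the 10 lowest with at least 16 reads in the higher group lay apart from coding genes. *Gm12530* (chr4:57171121-57172821) had 53.5 normalized reads in control and 16.6 in *Arid1a cKO*, a log2 difference of −1.69. *B930025P03Rik* (chr8:10882001-10884338) had 81.0 and 26.2 reads (−1.63), although the median of the 7 other peaks within 100 kb was 0.43. *Gm20735* (chr8:122450943-122453177) had 58.5 and 21.0 reads (−1.48). RefSeq describes none of these genes beyond a name. *Gm19277* (chr15:85155594-85157165) had 63.6 and 23.8 reads (−1.42), and *2310015D24Rik* (chr16:13520306-13521152) had 16.2 and 6.15 (−1.40). The remaining lower lncRNA members had differences from −1.99 to −1.02, among them *4932435O22Rik*, with 9.38 and 2.36 reads and so at least 3.13-fold lower, and *BB218582*, with 127 and 55.0 reads.

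Among the higher members, *Gm3521* had the largest difference. It lies head to head with *Rhoh*, a small GTPase gene of blood cells whose promoter had no peak. Its peak at chr5:65857725-65859117 had 1.89 normalized reads in control and 25.1 in *Arid1a cKO*, at least 8.37-fold higher against the floor of 3 reads. *LOC108167736* (chr1:154117092-154119002) had 19.4 and 73.0 reads, a log2 difference of 1.91, and the 7 other peaks within 100 kb had a median of 0.72. *4833412C05Rik* (chr7:67802803-67804410) had 19.03 and 65.3 reads (1.78). The nearest coding promoter peak, that of the intermediate filament gene *Synm* 44.3 kb away, had a difference of 0.23.

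Of the other higher lncRNA peaks, *2810433D01Rik* (chr11:102623701-102625505) had 12.5 normalized reads in control and 40.8 in *Arid1a cKO* (1.71), 19.5 kb from the promoter peak of the Wnt receptor gene *Fzd2* (0.20). *Gm39307*, head to head with the zinc finger gene *Zfp599* and in 1 peak with it, had 5.94 and 16.6 reads (1.48). *Gm10790* had 17.3 and 46.9 reads (1.44), and *1700054A03Rik* had 13.1 and 32.7 (1.32). Levels in control were low at most of these genes. *Gm15328* had the highest level in *Arid1a cKO* among the 18 higher members, with 53.8 reads in control and 134 in *Arid1a cKO* (1.32), and lay 8.68 kb from a promoter peak of *Cdh2*, which encodes N-cadherin, with a difference of 0.05. *Gm46840* had 14.2 and 33.1 reads (1.22). *Gm11999*, head to head with *Ikzf1*, a transcription factor gene of lymphocytes, had 10.1 and 22.8 (1.17). The other higher lncRNA members ran from 1.03 to 1.92 and included *Gm13446*, antisense in *Dab2ip*, with 39.7 and 87.4 reads (1.14).

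**Figure D3:**
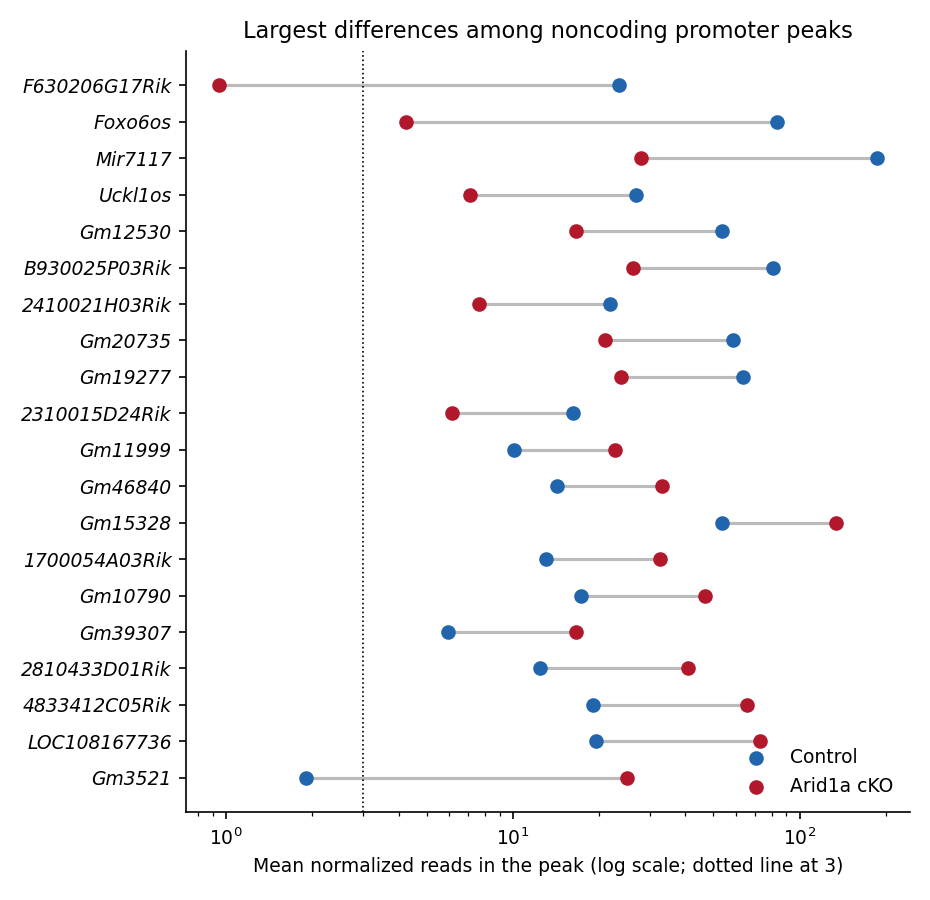
Horizontal positions give the authors' mean normalized reads on a log scale in control (blue) and Arid1a cKO (red) for the 10 noncoding promoter peaks with the most negative and the 10 with the most positive log2 difference among those with at least 16 reads in the higher group. The dotted line marks the floor of 3 reads, below which F630206G17Rik lay in Arid1a cKO and Gm3521 in control.

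The lncRNA genes with the strongest peaks had similar means in both groups. By control level per length, the 8 highest members had between 215 and 333 normalized reads per kb and log2 differences from −0.19 to −0.03. All 8 were slightly lower, and none came near 2-fold. Choosing peaks by their control level itself favours differences below 0. In the highest of the 4 groups by mean level, 142 of 237 noncoding promoter peaks and 6215 of 11497 of all peaks were below 0. *Lppos*, whose promoter is antisense within *Lpp*, a gene of a focal adhesion protein of smooth muscle, had 1113 reads in control and 989 in *Arid1a cKO* (−0.17). *Gm20337* shares its peak with the start of the splicing factor gene *Srsf5* (−0.04), *Gm4285* with *Tpt1*, the gene of the translationally controlled tumour protein (−0.03), *Gm16124* with the ubiquitin ligase gene *Cul5* (−0.19) and *Gm14966* with the splicing factor gene *Sf1* (−0.14). The small RNA genes *Mir1893*, in *Epc1* (−0.16), *Snord2*, in the translation factor gene *Eif4a2* (−0.08), and *Rnu12*, the U12 RNA of the minor spliceosome (−0.17), made up the rest. Each of these 8 peaks touched a coding promoter window, so their mark cannot be assigned to the noncoding start alone.

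At the 68 miRNA genes, 2 peaks were lower (2.94%) and 1 was higher (1.47%), where 10.6% and 4.57% of all peaks were. The median log2 difference at the 68 miRNA genes was −0.015. Of these genes, 34 lie inside a coding gene on the same strand. *Mir7117*, inside *Ank*, a gene of a pyrophosphate transporter, had the largest difference, with 186 normalized reads in control and 28.1 in *Arid1a cKO* at chr15:27569817-27573316 (−2.73, a 6.64-fold lower mean). The promoter peak of *Ank* itself had 205 reads in control and a difference of −0.08, so the difference was seen at the hairpin's peak and not at the host's promoter. *Mir486*, inside the ankyrin gene *Ank1* and expressed in muscle and red blood cells, had 917 and 452 reads (−1.02) in a peak of 7654 bp that also touches an *Ank1* start. Just short of 2-fold, *Mir6928* in *Atp6v0a1* had 273 and 147 reads (−0.89), with −0.10 at the *Atp6v0a1* promoter. *Mir713* was the 1 higher peak, with 10.7 and 21.9 reads (1.03).

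A further set of miRNA genes, known from heart muscle or other cells of the heart, was chosen after the values were seen, and is given without any count. Over all 68 miRNA gene peaks, 35 had a difference below 0 and 31 above. *Mir208a*, encoded in an intron of the α-myosin heavy chain gene *Myh6*, had 47.5 normalized reads in control and 55.3 in *Arid1a cKO* (0.22), while the *Myh6* promoter peak had 3591 reads in control (0.13). *Mir1a-2*, one of the genes of the muscle miRNA miR-1, had 942 and 699 reads (−0.43) in a peak of 9057 bp. *Mir133c* had 36.8 and 41.6 reads (0.18). *Mir22hg*, the host of the muscle-enriched miR-22, had 982 and 949 reads (−0.05). *Mir26a-1*, in *Ctdspl*, had 70.5 and 118 reads (0.74), with 0.44 at the *Ctdspl* promoter. *Mir30a* had 150 and 193 reads (0.36), and *Mir210*, which hypoxia induces, had 61.0 and 79.9 (0.39). The paired genes *Mir212* and *Mir132* had 23.8 and 31.8 reads (0.42). *Mir199a-1*, antisense in *Dnm2*, had 56.9 and 60.6 reads (0.09), and *Mir199b*, antisense in *Dnm1*, had 198 and 263 (0.41), although their 3p strands printed above are identical. *Mir675*, whose hairpin lies in the first exon of the imprinted *H19*, had 49.9 and 74.5 reads (0.58).

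Among all peaks 10.6% were 2-fold lower and 4.57% higher. The 5 lncRNA genes that host a miRNA had no peak 2-fold apart, with a median log2 difference of −0.05. The most negative was *A330023F24Rik*, which hosts *Mir29b-2* and *Mir29c*, with 20.7 normalized reads in control and 13.7 in *Arid1a cKO* (−0.59). The miR-29 family is known for targeting collagen messenger RNAs. Among the 4 hosts of snoRNAs, *Snhg8* had 422 and 405 reads (−0.06), *2410006H16Rik* had 202 and 215 (0.09) and *Snhg17* had 43.7 and 62.7 (0.52). The 27 peaks at snoRNA genes and other small RNAs had the narrowest range of the larger classes, from −0.26 to 0.28, with 0 peaks 2-fold apart. This class follows the RefSeq gene type, by which *Vaultrc5* (−0.52) was counted with the lncRNA genes. By the same type the 27 include *4930451G09Rik* (−0.15), whose transcript spans 14676 bp and is thus not known to be a small RNA. The median control level of the 27 peaks, 93.2 reads per kb, was above the 46.8 of lncRNA genes without a small RNA and the 43.6 of miRNA genes. In the highest of the 4 groups by mean level, 2.76% of all peaks were lower and 0.226% higher. Some of the 27 peaks also covered the promoter of a coding gene, as at *Snord43* in *Rpl3* and *Snord14a* in *Rps13*. What part the level and these coding promoters had in the narrow range was not tested. *Rny1* and *Rny3*, which encode the Y RNAs of the Ro ribonucleoprotein, had 168 and 140 reads (−0.26) and 119 and 111 reads (−0.11). The peak shared by *C920006O11Rik* and *Rn7sk*, the 7SK RNA that restrains the elongation factor P-TEFb, was also counted with the lncRNA genes and had 317 and 311 reads (−0.03).

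The 28 transcribed pseudogenes held 2 lower and 1 higher peak (7.14% and 3.57%), with a median log2 difference of −0.05. Among all peaks the shares were 10.6% and 4.57%. *Gm16016* starts antisense inside *Wwtr1*, which encodes TAZ, a partner of TEAD factors in the Hippo pathway. It had 32.7 normalized reads in control and 13.3 in *Arid1a cKO* (−1.30), while the *Wwtr1* promoter peak had 849 reads in control and a difference of −0.08. *Gm14267* had 194 and 85.6 reads (−1.18), and *Zfp572* had 7.01 and 15.1 (1.11).

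**Figure D4:**
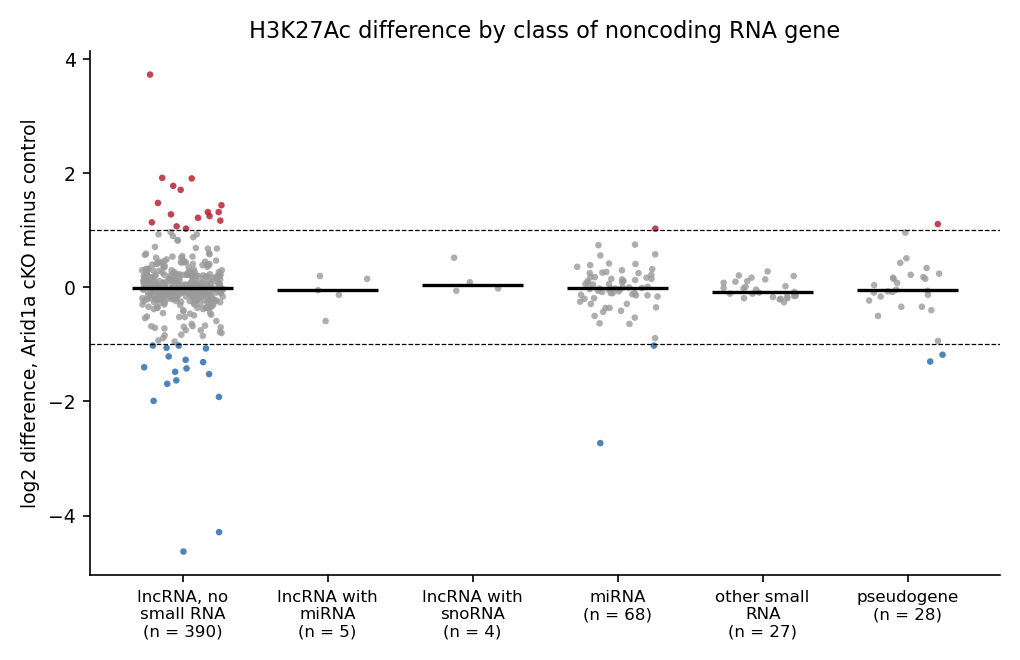
Each point is the log2 difference, Arid1a cKO minus control, of 1 noncoding promoter peak, grouped by the class of its RNA gene, with the median as a bar and 2-fold as dashed lines. Points beyond 2-fold are lncRNA genes without a small RNA (17 lower, 16 higher), miRNA genes (2 and 1) and pseudogenes (2 and 1), and the 27 other small RNA genes lie between −0.26 and 0.28.

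Lists of known noncoding RNA genes were also looked up. Each list held between 0 and 4 member peaks, and none of these was 2-fold apart. Among all peaks 10.6% were lower and 4.57% higher, and so few members cannot show whether the lists differ from that. Many of these genes are missing from the 522 because their peak was centred outside the window or in a coding window. Of 13 nuclear and chromatin-associated lncRNAs, *Firre*, which shapes nuclear architecture, had 38.3 normalized reads in control and 35.5 in *Arid1a cKO* (−0.11), and *Pvt1*, a neighbour of *Myc*, had 44.0 and 56.5 (0.36). For 9 others a peak touched the start window without being a member, with differences from −0.34 to 0.45, *Malat1* at 0.15 and *Neat1* at −0.13. None of the 9 imprinted lncRNAs was a member. Of the 6 with a peak touching the start, *Gnasas1*, antisense at the *Gnas* locus, had 31.3 and 71.5 reads (1.19), and the others ran from 0.00 to 0.58. The 0.58 is that of *H19*, in the peak given above for the member *Mir675*. Of 17 snoRNA host genes, 3 were members (*Snhg8*, *Snhg17* and *Snhg9*, the last with 211 and 226 reads, 0.10), and 13 others had a touching peak with differences from −0.19 to 0.38. The touching peaks of *Snhg12* and *Snhg16* are themselves the member peaks of *Snora16a* and *Snord1c*.

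Among 11 miRNA host genes, *Mir22hg* was the only member, and 7 others had a touching peak with differences from −0.52 to 0.56. The peak over *Mir1a-1hg*, the host of the other miR-1 gene, covered 16871 bp and had 2091 normalized reads in control and 1458 in *Arid1a cKO* (−0.52), close to the −0.43 of *Mir1a-2*. *Dnm3os*, which carries miR-199a and miR-214 and is known from mesenchymal cells, had 247 and 365 reads (0.56). None of the 9 heart and mesoderm lncRNAs was a member, and 2 of them, Tbx5-as and Chaer, were not found by these names in the RefSeq table. Broad peaks covered the start of *Hand2os1*, with 4012 and 2702 reads (−0.57), of *Mhrt*, antisense in the *Myh6* and *Myh7* locus, with 3591 and 3929 (0.13), and of *Gata6os*, with 3517 and 2817 (−0.32). The peak over *Mhrt*, of 24969 bp, is also the *Myh6* promoter peak given above, so its mark cannot be assigned to *Mhrt* alone. The peaks over *Hand2os1* and *Gata6os* covered 28415 and 34960 bp, so their values cannot be assigned to the noncoding start alone either. Of 7 small RNA genes transcribed mostly by RNA polymerase III, 4 were members, of which *Vaultrc5* was the lowest with 86.8 and 60.6 reads (−0.52), and 3 others had touching peaks from −0.14 to 0.26.

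By their place relative to coding genes, 210 members lay apart from them, 155 were head to head with a coding gene within 5 kb, 106 started inside a coding gene on the other strand and 51 on the same strand. Apart from coding genes 13 were lower and 13 higher (6.19% each), and the median log2 difference was 0.02. The shares among all peaks were 10.6% lower and 4.57% higher. Head to head, 2 were lower and 3 higher (1.29% and 1.94%), with a median of −0.03. Inside a coding gene on the other strand 4 were lower and 2 higher (3.77% and 1.89%). On the same strand 2 were lower and 0 higher (3.92% and 0%). The median control level was 36.3 normalized reads per kb apart from coding genes and 61.4 head to head. The head-to-head pairs mostly share a peak, in 144 of 155 cases, so the mark of the noncoding and the coding start was counted together there.

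Members were also split by contact with a coding window. Of the 272 members that touched no coding window, 18 were lower and 14 higher (6.62% and 5.15%). Of the 250 that touched one, 3 were lower and 4 higher (1.2% and 1.6%). Among all peaks the shares were 10.6% and 4.57%. The median control level was 30.8 normalized reads per kb without contact and 72.6 with it, and the part of the level in this split was not tested. Where a noncoding gene that starts inside a coding gene on the other strand and that coding gene had separate promoter peaks, their log2 differences had a Pearson r of 0.423 and a Spearman rho of 0.584 (n = 29 pairs from the same libraries). None of the 29 coding promoters was 2-fold apart, while 3 of the noncoding peaks were lower. Where a coding gene had several promoter peaks, the one with the most control reads was taken. Levels were not matched within the pairs, and the part of level in this contrast was not tested.

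The CpG content of the promoter split the members further. A promoter was taken as CpG-rich when the 500 bp around the start had a GC content of at least 50% and a ratio of observed to expected CG of at least 0.6. Of 254 CpG-poor members 19 were lower and 15 higher (7.48% and 5.91%). Of 268 CpG-rich members 2 were lower and 3 higher (0.746% and 1.12%). Among all peaks, which were not split by CpG content, the shares were 10.6% and 4.57%. The CpG-poor members had a median control level of 30.7 normalized reads per kb and the CpG-rich ones 69.2. *Lppos* and *Mir22hg*, printed above, were CpG-rich, and the other 4 printed promoters were CpG-poor by this measure over 500 bp. The same split at coding promoters gave 34 lower and 30 higher of 970 CpG-poor peaks (3.51% and 3.09%), and 25 and 20 of 3628 CpG-rich ones (0.689% and 0.551%).

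Since CpG-poor promoters also had lower levels, the split was repeated separately above and below the median level of all peaks. Above it, 6 of 159 CpG-poor members were lower and 4 higher, against 1 and 0 of 228 CpG-rich members. Below it, 13 of 95 CpG-poor members were lower and 11 higher, against 1 and 3 of 40 CpG-rich ones. The coding promoters above it had 14 lower and 3 higher of 648 CpG-poor peaks, and 9 and 2 of 3204 CpG-rich ones. Across all 522 members the size of the log2 difference had a Pearson r of −0.314 and a Spearman rho of −0.332 with the CpG ratio. What part the level and the CpG content each had was not tested.

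**Figure D5:**
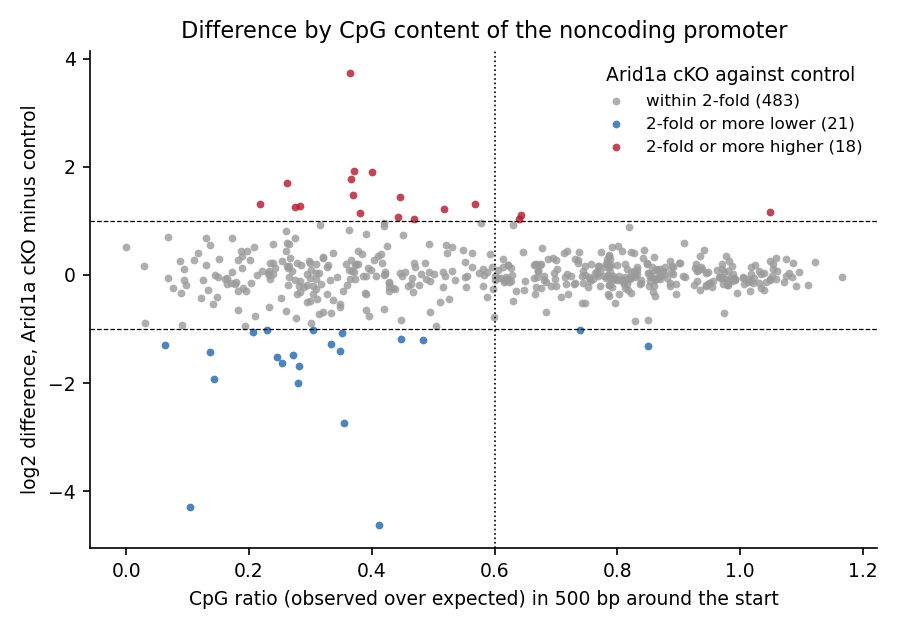
Each point is 1 of 522 noncoding promoter peaks, with the ratio of observed to expected CG in 500 bp around the start on the horizontal axis and the log2 difference, Arid1a cKO minus control, on the vertical axis. Dashed lines mark a 2-fold difference and the dotted line a ratio of 0.6, and 19 of the 21 lower and 15 of the 18 higher points are CpG-poor by ratio and GC content together.

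Peaks around a member leaned the same way by a small amount. The median log2 difference of the other peaks within 100 kb was −0.185 at the median of the 21 lower members, 0.01 at 458 members within 2-fold and 0.12 at 15 of the 18 higher members. It was below 0 for 13 of the 21 lower members and above 0 for 12 of those 15. Over the 494 members with such neighbours, the Pearson r was 0.198 and the Spearman rho 0.227. The nearest peak on a coding promoter other than the member's own gave a Pearson r of 0.158 and a Spearman rho of 0.126 over 522 members. At the lower members the median difference of the nearest coding promoter peak was 0.00, with 10 below 0 and 10 above. Of the 21, 1, at *Foxo6*, was itself 2-fold lower. At the higher members 7 were below 0 and 10 above. Neighbouring peaks share libraries and chromatin domains, so these values describe the regions and are no measure of regulation.

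Matches to the binding cores of factors known in this tissue were counted on both strands over the whole peak. The core CATTCC of the TEAD factors was present in 65.1% of noncoding promoter peaks, 63.8% of coding promoter peaks and 65.4% of all peaks. It was in 14 of the 21 lower and 11 of the 18 higher members. The core AAGGTCA of the estrogen-related receptors was present in 33.5% of members, 29.8% of coding promoter peaks and 36.6% of all peaks, and in 6 of the 21 lower and 3 of the 18 higher members. The E-box CACGTG was present in 33.7%, 37.3% and 28.9%, and TATAAA in 55.9%, 54.3% and 60.1%. The MEF2 core was rarer, in 4.98% of members, 4.07% of coding promoter peaks and 7.56% of all peaks, and in 1 lower and 0 higher members. Some forms of the MEF2 core contain TATAAA, so these matches can overlap, and none of the other cores contains another. Wider peaks hold more matches by length alone, and a match describes the sequence only.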

How the data were processed

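The labels gave the genotype and antibody of the 8 libraries. Alignment by the authors used BWA (0.7.17-r1188) and mm10. HOMER (4.11 in the submitters' processing notes) was run by them with merged inputs, peaks of a single sample were dropped, and DiffBind (2.12.0) with DESeq2 (1.24.0) served for their comparison of genotypes. The authors deposited 1 table with the log2 mean normalized read count of each peak over all samples and per genotype. Its fold change, p-value and FDR columns hold the authors' own comparison and were not used. How libraries were scaled and whether input was subtracted in these values is not given in the sources used here. With 0 columns of single samples, depth is unknown and no count model, interval or test could be made.

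Peaks were joined to 45756 curated RefSeq transcripts of GRCm38.p6, whose coordinates are those of mm10. The last peak of each of 21 chromosomes ended inside the reference, and 7 peaks on unplaced sequence had no annotation here. Normalized reads are 2 to the power of the deposited log2 mean. A group mean at or under 3 reads was treated as a floor. Head to head means a coding start on the other strand within 5 kb whose gene runs away from it. Named genes are the 10 most negative and 10 most positive differences with at least 16 reads in the higher group, the 8 highest control levels per kb and the listed genes, and other genes were chosen after their values were seen. The members and lists were chosen with earlier results of these data known. Promoter sequences were found in RefSeq for 337 of 520 genes. The peak selection was tested on simulated data with a single peak per start and starts far apart. That covered the window, the width limit and the transcript type. It could not check the exclusion of peaks also centred in a coding window or the choice among several starts. Python 3.11.15 was used with pandas 2.3.3, numpy 2.4.6, scipy 1.17.1, pysam 0.24.0 and matplotlib 3.10.9.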

Additional observations from a re-analysis of the deposited data

How the results depend on the processing

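With the window widened to 2000 bp upstream and 500 bp downstream, 42 of 648 noncoding promoter peaks were 2-fold lower, against 21 of 522. Without peaks that touch a coding window 272 members were left. With a mean of at least 16 reads 11 of 478 members were higher, against 18 of 522. That was 2.30%, where 2.23% of all peaks with such a mean were higher. A limit of 1.5-fold gave 45 lower and 34 higher peaks, and 4-fold gave 3 and 1. The shares of all peaks at these other limits were not counted, so no comparison with them is made. The settings on contact and on reads only remove peaks and the last 2 only change the limit, while the cause of the move with the wider window was not tested. Under the other settings, which covered a narrower window, width, sex chromosomes, coding overlap, the floor and centring, the number of members stayed within 400 to 738 and the median log2 difference within −0.03 to 0.01. Centring on all peaks shifted values by 0.01. No paired analysis was possible because the table holds group means only, so the replicate block and the fits that leave out a replicate were not run. The differences therefore have no error, and low peaks are the least certain.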
